A study of Mus musculus with 3 samples.

Results

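Fkbp5, Tsc22d3, Zbtb16, Klf9, Sgk1, Ddit4, Dusp1 and Errfi1 are genes known to be switched on by glucocorticoid hormones. These 8 genes, of 33696 in the count tables, were followed in mouse spleen cells by single-cell RNA sequencing. The members were chosen by name, with their UMI counts in these same libraries already known, so their differences between libraries are given as descriptions. The samples are 3 spleen libraries, 1 per group, labelled Chow, MASH and MASH-Phe-free. MASH stands for metabolic dysfunction-associated steatohepatitis, an inflamed fatty liver, and Phe for the amino acid phenylalanine. The series text describes C3H mice given a high-fat and then a methionine- and choline-deficient diet, with controls on another diet, and injected under the skin with HCA-1 mouse liver cancer cells. That text is about the tumours, and the labels give no age, sex, number of animals, diet scheme or time of collection for the spleens. With 1 library a group there is no replicate check and no test between groups. Every interval covers counting error only, and a difference between libraries cannot be told apart from a difference between the animals or preparations behind them.

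Glucocorticoids (corticosterone in mice) enter cells and bind the glucocorticoid receptor, Nr3c1, which is held ready by heat shock protein chaperones. The bound receptor moves to the nucleus, binds DNA as a pair at palindromic glucocorticoid response elements, and raises the RNA of nearby genes within hours. Spleen lymphocytes and myeloid cells carry the receptor, and the hormone is known for killing or quieting lymphocytes and damping cytokine production. Fkbp5 codes for a co-chaperone that lowers the receptor's hormone binding, a negative feedback. Tsc22d3 (GILZ) and Dusp1, a phosphatase of MAP kinases, carry much of the anti-inflammatory effect. Zbtb16 (PLZF) and Klf9 are transcription factors, Ddit4 (REDD1) restrains mTORC1, Sgk1 is a kinase of ion transport and survival, and Errfi1 inhibits the EGF receptor.

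The promoters show how the group differs in the letters next to its start sites. The RefSeq table of promoter windows (build GRCm38.p6, which is older than the build of the count tables) held 15 windows for 7 of the 8 genes. The letters searched on both strands were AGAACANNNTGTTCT, the full glucocorticoid response element, its 6-base repeat unit AGAACA, which reads TGTTCT on the other strand, the cyclic AMP response element TGACGTCA and the E-box CACGTG. Only the 250 bases before each start were searched and printed, 5′ to 3′ in the direction of the gene, with every match in capitals. The first is the Fkbp5 promoter, shown because the gene differed in every cell class. The second is 1 of 3 Tsc22d3 promoters and holds 1 repeat unit. The next is 1 of 6 Sgk1 promoters, the only window of the group with the full element. The last is the Dusp1 promoter, with matches to other elements.
Fkbp5, chr17:28486150-28486399, minus strand: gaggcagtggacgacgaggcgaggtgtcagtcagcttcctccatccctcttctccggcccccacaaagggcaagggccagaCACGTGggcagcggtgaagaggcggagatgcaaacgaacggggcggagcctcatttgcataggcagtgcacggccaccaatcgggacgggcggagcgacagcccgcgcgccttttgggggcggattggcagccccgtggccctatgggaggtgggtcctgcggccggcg
Tsc22d3, chrX:140600523-140600772, minus strand: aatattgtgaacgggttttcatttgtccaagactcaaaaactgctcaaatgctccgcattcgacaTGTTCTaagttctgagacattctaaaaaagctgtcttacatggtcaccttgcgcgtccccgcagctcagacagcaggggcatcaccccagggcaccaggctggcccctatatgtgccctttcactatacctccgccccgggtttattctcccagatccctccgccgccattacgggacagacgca
Sgk1, chr10:21993640-21993889, plus strand: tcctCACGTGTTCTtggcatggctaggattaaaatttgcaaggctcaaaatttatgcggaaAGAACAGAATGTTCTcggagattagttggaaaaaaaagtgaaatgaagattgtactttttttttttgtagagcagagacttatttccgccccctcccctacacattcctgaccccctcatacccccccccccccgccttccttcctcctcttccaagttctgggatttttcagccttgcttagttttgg
Dusp1, chr17:26508473-26508722, minus strand: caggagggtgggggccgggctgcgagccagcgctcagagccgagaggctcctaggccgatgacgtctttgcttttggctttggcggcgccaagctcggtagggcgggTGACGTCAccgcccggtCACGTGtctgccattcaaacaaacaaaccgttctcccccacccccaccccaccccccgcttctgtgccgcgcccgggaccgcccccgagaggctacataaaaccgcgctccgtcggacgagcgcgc

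In the Sgk1 window the full element reads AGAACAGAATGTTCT and begins 189 bases before the start. It is a rare match, found before the start in 3 of 32851 windows of the table, or 0.00913%. Its 2 ends are also counted as repeat units, and 1 more unit in that window overlaps the E-box. The repeat unit stood in 4 of the 15 windows and in 16.1% of all windows. The Dusp1 window holds a cyclic AMP response element and an E-box, and the Fkbp5 window an E-box. The response element for cyclic AMP was in 2 of the 15 windows, the other being an Errfi1 window, and in 1.55% of all. The E-box was in 6.02% of all windows. These matches are descriptions of letters. Only exact matches were counted, so an element that differs from the searched letters by any base is not seen. Regulatory elements farther from the start were not searched.

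The libraries held 16495 to 19219 barcodes with 138787602 to 160115282 UMIs (unique molecular identifiers, each standing for a captured RNA molecule) and a median of 5873 to 7169 UMIs per barcode. After filtering, 15669 Chow, 17333 MASH and 15560 MASH-Phe-free cells were clustered without the 8 genes and named from marker genes. In 12 classes with at least 50 cells in each library, named by their markers as B-like, plasma-like and so on, 9 to 14 markers of a class were over 2-fold higher in it than in the other cells. Between 72 and 102 barcodes were shared by a pair of libraries. Levels are CPM, the share of all UMIs of a class in a library scaled to 1000000. A pair of gene and class was called lower or higher when its CPM ratio was at or past 1.5-fold and at least 20 UMIs lay behind it. Among the classes, the progenitor-like MASH cells stand apart with a median of 4339 UMIs, against 35233 in Chow and 39105 in MASH-Phe-free. Macrophage-like cells were the shallowest of the 12 classes, with medians of 1044, 1076 and 1158.5 UMIs in Chow, MASH and MASH-Phe-free. Erythroid-like cells were 112, 1025 and 710 in Chow, MASH and MASH-Phe-free, and the late cluster of them held 11, 435 and 48 cells.

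The glucocorticoid target genes were lower in both MASH libraries than in Chow. In MASH over Chow, 46 of 82 measured pairs of gene and class were lower and 3 were higher, where 10.4% of pairs over all genes were lower and 7.97% higher. In MASH-Phe-free over Chow, 50 of 85 were lower and 1 was higher, where 8.42% and 6.78% of all pairs were. The median log2 ratio of the members, with 10 CPM added to each level, was -0.53 and -0.58 in these comparisons, and -0.03 and -0.02 over all pairs. Both comparisons share the Chow library, and the members were chosen with them known. Without erythroid-like, progenitor-like and platelet-like cells, 37 of 63 pairs were lower and 0 higher in MASH, where 8.79% and 6.0% of all pairs in these classes were. In MASH-Phe-free, 38 of 66 were lower and 1 higher, where 7.20% and 6.07% were. Fkbp5, Tsc22d3 and Ddit4 accounted for most of these calls, Klf9, Dusp1 and Zbtb16 for part of them, and Sgk1 and Errfi1 for almost none.

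**Figure D1:**
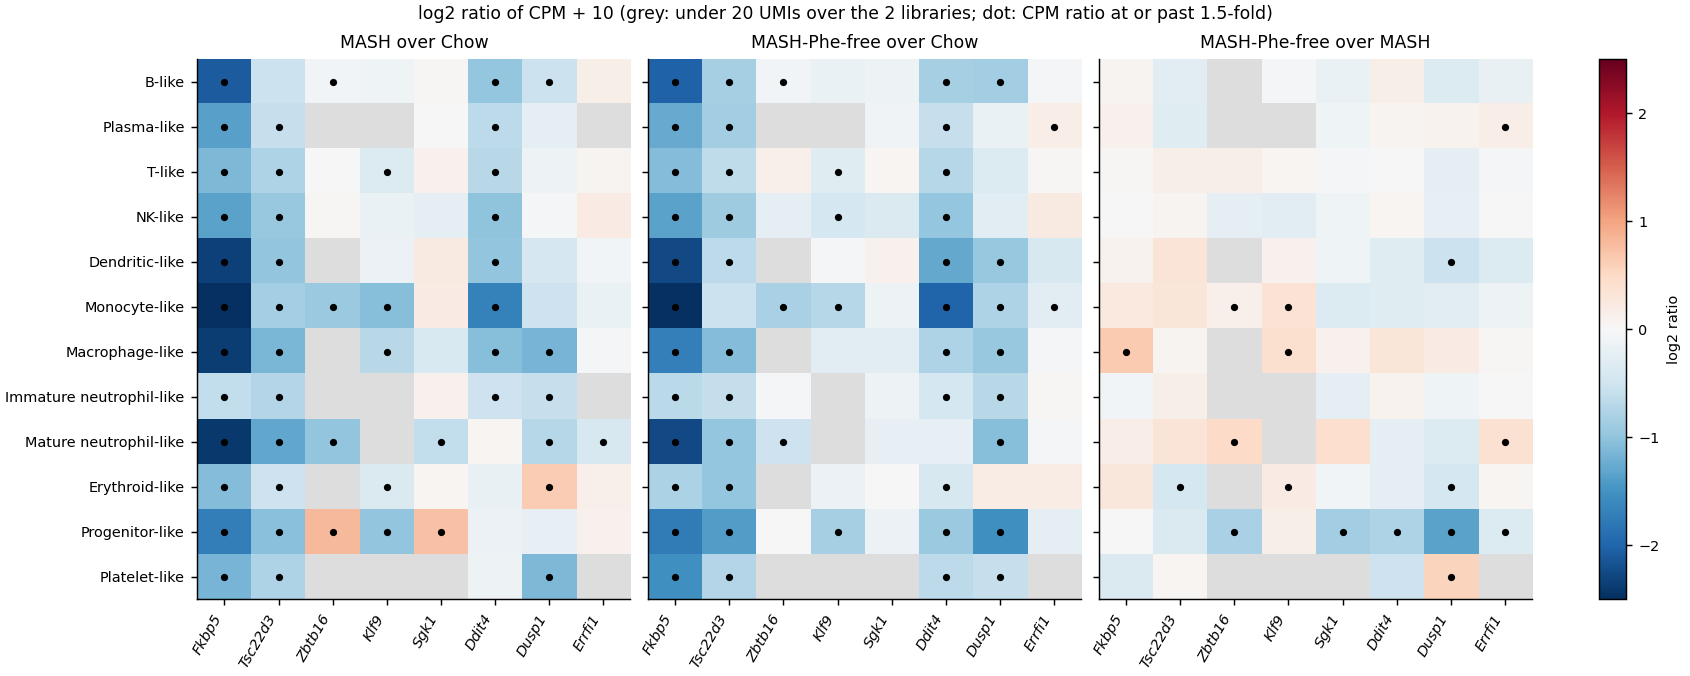
Colour gives the log2 ratio of CPM + 10 of each gene (columns) in each cell class (rows) for the 3 comparisons of libraries, grey marks pairs with under 20 UMIs, and a dot marks a CPM ratio at or past 1.5-fold. The Fkbp5 and Tsc22d3 columns are blue in all 12 classes of the left and middle panels, the Sgk1 and Errfi1 columns are pale, and the right panel holds 8 lower and 9 higher calls.

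The receptor itself, Nr3c1, differed little in most classes. Nr3c1 levels in B-like cells were 303 (Chow), 257 (MASH) and 251 (MASH-Phe-free) CPM, ratios of 0.848 and 0.830. In mature neutrophil-like cells, where it was highest, the levels were 407, 438 and 328 CPM. It passed 1.5-fold in 2 of 12 classes in MASH over Chow, lower in erythroid-like cells (0.658) and higher in platelet-like cells (1.70), and in 1 in MASH-Phe-free over Chow, progenitor-like cells (0.621). Hsd11b1, the enzyme that regenerates active hormone from its inert form, was highest in NK-like cells at 298, 335 and 289 CPM. It was called higher in mature neutrophil-like cells, with 19.1 CPM in Chow, 50.1 in MASH and 31.4 in MASH-Phe-free. It was called lower in dendritic-like cells in both comparisons with Chow (0.547 and 0.523) and in macrophage-like cells in MASH-Phe-free (0.517, interval 0.243 to 1.07). Nr3c2 and Abcb1a, of the same list, moved in some classes, in both directions. Nr3c2 stood at 92.1, 92.5 and 85.7 CPM in B-like cells, 53.9, 34.8 and 43.3 in macrophage-like and 5.00, 3.15 and 1.14 in monocyte-like cells. In erythroid-like cells it was lowest in Chow, at 0.245, 2.36 and 1.69 CPM on 1, 48 and 43 UMIs. In immature neutrophil-like cells it was highest in MASH, at 2.06, 6.50 and 2.22 CPM. Abcb1a stood at 4.10, 8.40 and 3.97 CPM in monocyte-like cells, at 15.3, 26.5 and 17.2 in dendritic-like and at 22.6, 19.9 and 8.26 in macrophage-like cells. Of the 14 receptor chaperones and cofactors, all were measured in B-like cells and none was called in either comparison with Chow. Over all genes in these cells, 3.60% were lower and 5.71% higher in MASH, and 4.66% and 4.51% in MASH-Phe-free. With 14 genes, a count of 0 is near these shares. Dnaja1, a co-chaperone of Hsp70, lay farthest below 1 of this list in B-like cells in MASH over Chow, at 192, 136 and 155 CPM.

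Fkbp5 was lower in all 12 classes in both comparisons with Chow. Its B-like level was 190 CPM for the Chow library, 37.4 for MASH and 39.4 for MASH-Phe-free. In monocyte-like cells the levels were 285, 31.1 and 38.7 CPM, the lowest ratio of any class in MASH over Chow at 0.109 (95% interval 0.0975 to 0.122). In mature neutrophil-like cells they were 462, 78.0 and 89.2 CPM. In each of these classes the Chow interval lay far above the other 2 libraries. The smallest difference was in immature neutrophil-like cells, with 64.2, 38.5 and 36.2 CPM and a ratio of 0.60 (0.472 to 0.755) over only 101 MASH cells. The median ratio over classes was 0.231 in MASH and 0.269 in MASH-Phe-free.

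The order of the classes by Fkbp5 level also changed. In Chow, mature neutrophil-like cells were highest, then macrophage-like cells at 333 CPM, monocyte-like cells, NK-like cells at 206, B-like cells and progenitor-like cells at 181. The intervals of NK-like, B-like and progenitor-like cells overlap, as do those of dendritic-like (155 CPM) and T-like (150 CPM) cells. Plasma-like cells were lowest, at 29.6 CPM, with an interval that overlaps that of erythroid-like cells at 35.5. In MASH, mature neutrophil-like (78.0), NK-like (75.8) and T-like (63.8) cells led, the first 2 not separable, while monocyte-like cells fell below B-like cells. In MASH-Phe-free, macrophage-like cells led at 95 CPM, with an interval that overlaps that of mature neutrophil-like cells.

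**Figure D2:**
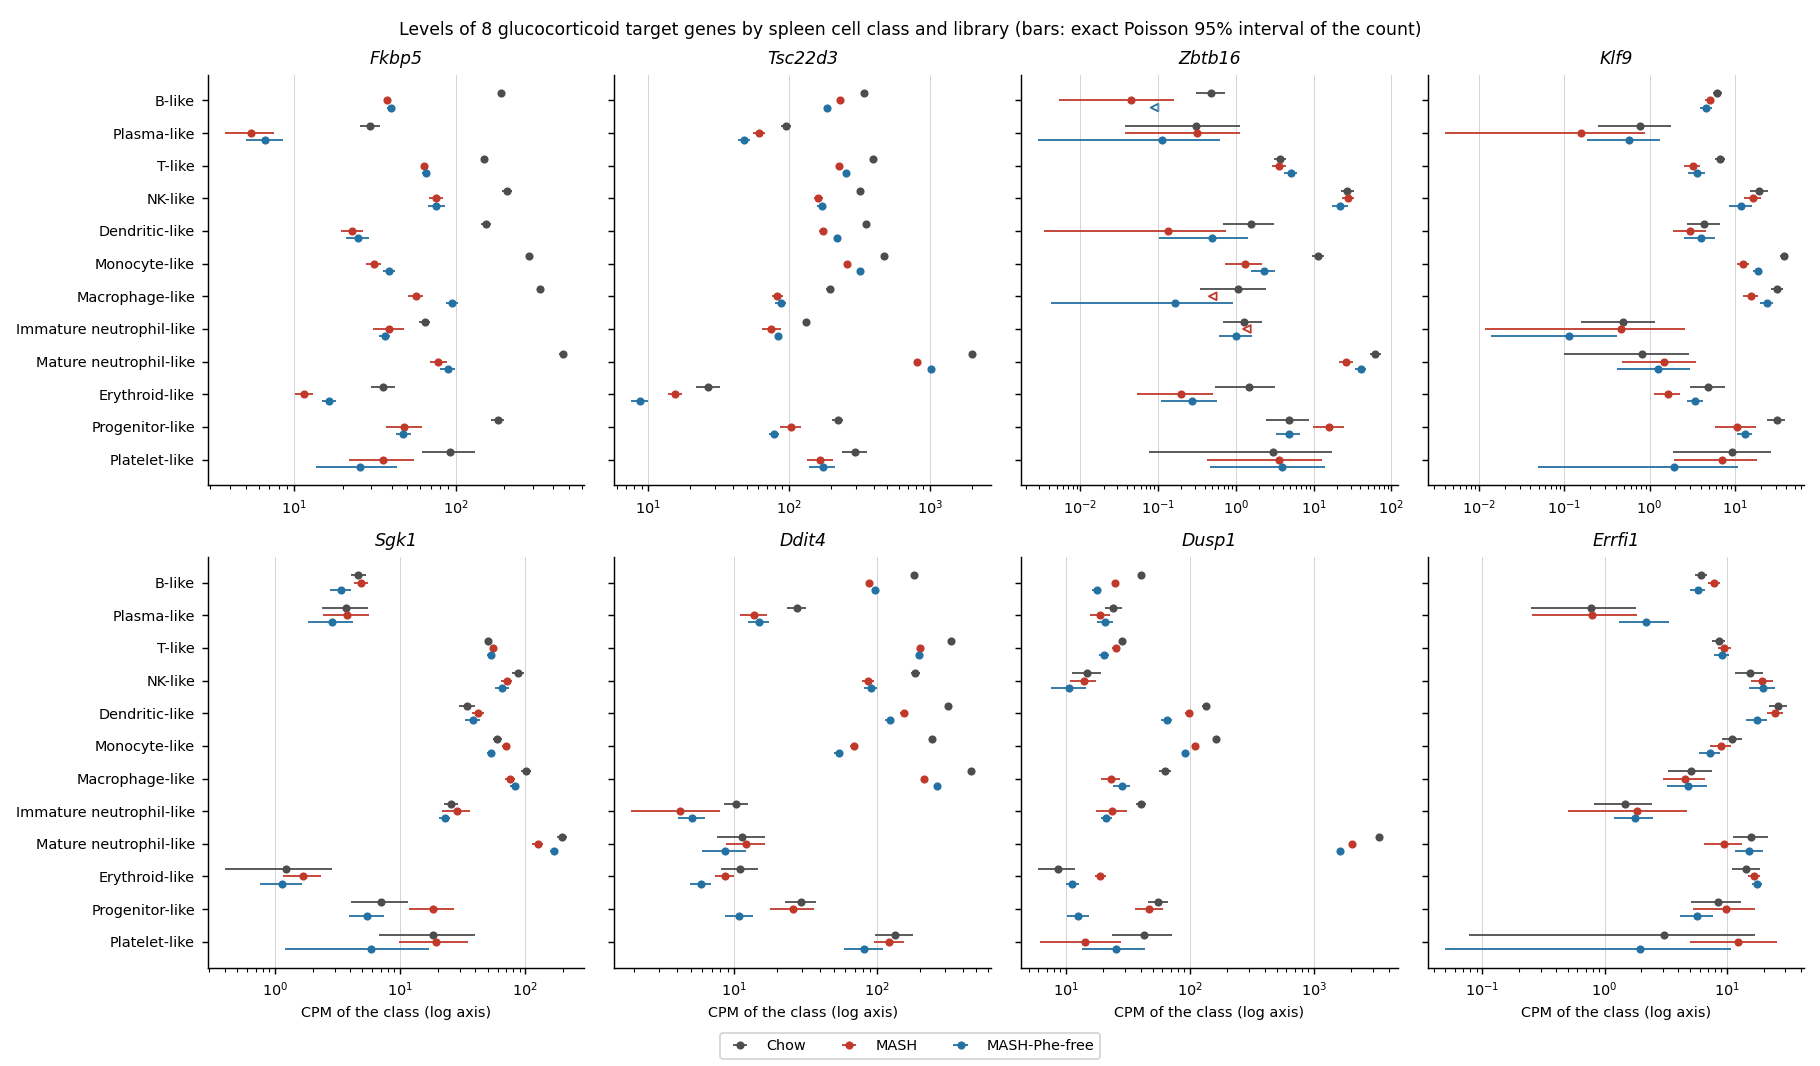
Points give the CPM of each gene (panels, log axes) in the 12 cell classes for the Chow (grey), MASH (red) and MASH-Phe-free (blue) libraries, bars the exact Poisson 95% interval, and an open triangle the level of 3 counts where no UMI was found. The grey Fkbp5 points lie to the right of the red and blue ones in every class, from 29.6 against 5.36 and 6.61 CPM in plasma-like cells to 462 against 78.0 and 89.2 in mature neutrophil-like cells.

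Fkbp5 was the only gene to be lower in all 12 classes. Of 4960 genes with at least 20 UMIs in every class for MASH over Chow, 1 was called lower in all 12, Fkbp5, and 3 in at least 11. Of 4764 genes for MASH-Phe-free over Chow, the counts were 1, again Fkbp5, and 5. With 10 CPM added, which draws the log2 ratios of low genes towards 0, no gene of 14968 in B-like cells lay below it in MASH over Chow. None of 12219 did in monocyte-like cells. Each other class had genes farther down than Fkbp5, from 4 of 11453 in macrophage-like to 152 of 6139 in platelet-like cells. The Fkbp5 difference was also found within clusters: in 24 of 24 measured clusters the ratio was past 1.5-fold, from 0.104 to 0.565 in MASH and from 0.100 to 0.513 in MASH-Phe-free. The share of cells with a Fkbp5 UMI fell as well. After thinning each B-like cell to 4602 UMIs, it was 51.4% in Chow, 14.1% in MASH and 15% in MASH-Phe-free (67.0%, 23.3% and 23.8% without thinning). For monocyte-like cells thinned to 6905 UMIs, the shares were 76.2%, 16.4% and 21.7% (91.6%, 32.1% and 31.4%). In plasma-like cells, the class with the lowest level, they were 5.41%, 1.32% and 1.42% at 2366 UMIs, from medians of 16677 to 19914 UMIs a cell against 7872 to 8482 in B-like cells.

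**Figure D3:**
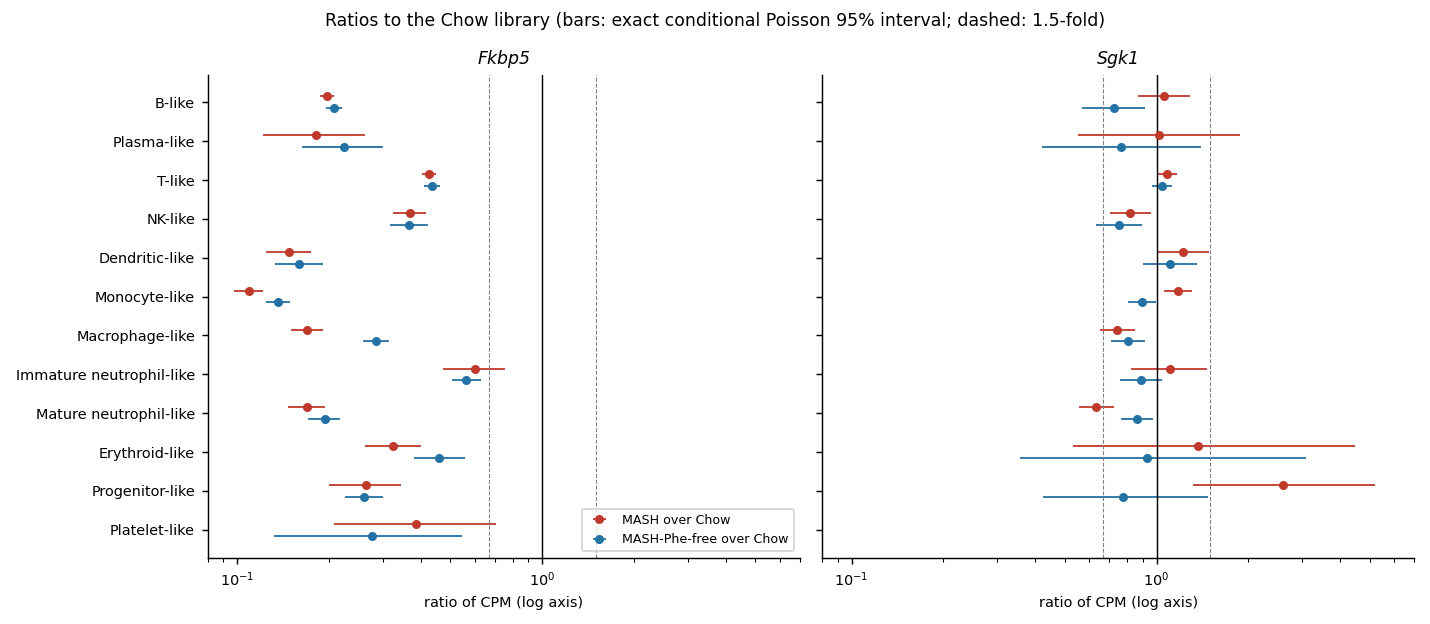
Points give the CPM ratio to the Chow library on a log axis for Fkbp5 (left) and Sgk1 (right) in the cell classes, red for MASH and blue for MASH-Phe-free, with exact conditional Poisson 95% intervals and dashed lines at 1.5-fold. All Fkbp5 points lie left of the lower dashed line, while the Sgk1 points lie around 1 except in mature neutrophil-like (0.634) and progenitor-like (2.59) cells in MASH.

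In lymphocyte subsets gated by single marker genes Fkbp5 was also lower, to an extent that differed between the gates. In follicular and marginal zone B-like cells Fkbp5 went from 165 to 34.1 CPM and from 231 to 49.8 CPM between Chow and MASH. In CD4 and CD8 T-like cells it went from 145 to 55.2 and from 108 to 57.2 CPM. In Foxp3 regulatory cells it went from 232 to 93.9 CPM, and in gamma-delta cells from 321 to 79.8 CPM. MASH-Phe-free levels were 36.3, 48.5, 62.6, 46.6, 93.6 and 102 CPM in the same order. All 6 gates were lower in both libraries, with ratios in MASH from 0.207 in the follicular to 0.528 in the CD8 gate. The gamma-delta gate held only 90, 54 and 45 cells.

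Tsc22d3 was lower in 11 of 12 classes in each comparison with Chow. In mature neutrophil-like cells, its highest class, it was 2000.2 CPM with Chow, 808 with MASH and 1013 with MASH-Phe-free. In T-like cells the levels were 398, 228 and 254 CPM, and in macrophage-like cells 195, 82.4 and 87.2 CPM. Chow was the highest library in all 12 classes, and no interval of a ratio to Chow reached 1. The ratios lay in a narrower band than those of Fkbp5, from 0.404 to 0.679 in MASH with a median of 0.557, and from 0.327 to 0.682 in MASH-Phe-free with a median of 0.540. The pairs just outside 1.5-fold were B-like cells in MASH (0.679) and monocyte-like cells in MASH-Phe-free (0.682), and the nearest ones inside were plasma-like cells in MASH (0.638) and T-like cells in MASH-Phe-free (0.637).

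Dusp1 followed the same direction with exceptions. In mature neutrophil-like cells its levels were 3380 CPM (Chow), 2045 (MASH) and 1618 (MASH-Phe-free). In B-like cells the levels were 40.5, 24.9 and 17.7 CPM, and in macrophage-like cells 63.3, 23.0 and 28.1 CPM. It was lower in 5 of 12 classes in MASH and in 8 of 12 in MASH-Phe-free. In erythroid-like cells it was higher in MASH, at 19.0 against 8.57 CPM, a ratio of 2.22 (1.57 to 3.23), with 11.3 CPM in MASH-Phe-free. In T-like and NK-like cells no comparison passed 1.5-fold. Dusp1 is also an immediate early gene, induced by stress and by handling of cells.

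Zbtb16, the PLZF transcription factor of innate-like lymphocytes, was sparse and split by cell class. Monocyte-like cells held 11.5 (Chow), 1.31 (MASH) and 2.29 (MASH-Phe-free) CPM, ratios of 0.114 (0.0619 to 0.196) and 0.199 (0.132 to 0.294). In mature neutrophil-like cells, its highest class in Chow, the levels were 62.2, 26.4 and 40.6 CPM. In NK-like cells they were 27.3, 27.9 and 22.1 CPM, with both ratio intervals spanning 1. In gamma-delta T-like cells they were 38.3, 32.7 and 47.6 CPM, also within 1.5-fold. In CD4 T-like cells Zbtb16 was higher in both MASH libraries, at 2.93, 5.37 and 6.14 CPM, ratios of 1.83 (1.17 to 2.91) and 2.09 (1.3 to 3.4) on 34, 53 and 41 UMIs. Monocyte-like and mature neutrophil-like cells were thus lower in the MASH libraries, and NK-like cells within 1.5-fold. In B-like cells 22 UMIs were found in Chow, 2 in MASH and 0 in MASH-Phe-free, a ratio of 0.0920 (0.0105 to 0.374) in MASH and, taking 3 counts in place of 0, at least 5.38-fold lower in MASH-Phe-free. Only 0.153% of thinned B-like Chow cells held a Zbtb16 UMI, against 9.70% of NK-like cells thinned to 4319 UMIs, with median depths of 8277 and 7257 UMIs, and the B-like share is read as background. In progenitor-like cells Zbtb16 was higher in MASH, at 16.0 against 4.85 CPM, resting on 21 and 11 UMIs, and 4.77 CPM in MASH-Phe-free. Of its 12 classes, 6 had enough UMIs to be measured in MASH over Chow, with 3 lower, the B-like one among them, and 1 higher.

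Klf9, a Krüppel-like factor, was measured in 8 classes, lower in 5 in MASH and in 4 in MASH-Phe-free. In monocyte-like cells it stood at 37.1, 12.4 and 18.6 CPM in Chow, MASH and MASH-Phe-free. In T-like cells the levels were 6.76, 3.19 and 3.60 CPM, and in macrophage-like cells 31.1, 15.4 and 23.6 CPM. In B-like cells they were 6.24, 5.06 and 4.56 CPM, within 1.5-fold. All 8 measured ratios were below 1 in both comparisons, and the dendritic-like and NK-like intervals in MASH spanned 1. Within clusters the picture was less even: of 15 measured in MASH over Chow, 11 were lower and 1 was higher, with ratios from 0.233 to 3.62. In the CD4 gate of T-like cells Klf9 went from 5.26 to 1.32 CPM between Chow and MASH, and in the CD8 gate from 3.08 to 3.09 CPM.

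Ddit4, the mTORC1 restrainer, was lower in 8 of 12 classes in MASH and in 11 of 12 in MASH-Phe-free. In monocyte-like cells it went from 245 CPM (Chow) to 69.2 (MASH) and 54.0 (MASH-Phe-free), the lowest ratios of its classes at 0.282 and 0.22. In macrophage-like cells, its highest class, the levels were 460, 215 and 266 CPM. In B-like cells they were 182, 87.7 and 97.8 CPM, and in T-like cells 333, 201 and 199 CPM. Mature neutrophil-like cells, at 11.4, 12.2 and 8.62 CPM, were within 1.5-fold in both. Ddit4 is also raised by other stresses, among them the ATF4 pathway. Of the 11 genes of the ATF4 list, 8 were measured in monocyte-like cells, with 0 lower and 1 higher in MASH, where 7.18% and 5.88% of all genes were. That count covers MASH over Chow only, and the part of the ATF4 pathway in the Ddit4 levels was not tested.

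Sgk1 and Errfi1 stayed within 1.5-fold of their Chow levels in most classes. In T-like cells Sgk1 stood at 50.8, 55.1 and 52.9 CPM, and in NK-like cells at 86.9, 71.3 and 65.5 CPM. In monocyte-like cells it was 59.6, 69.9 and 53.5 CPM, beside the Fkbp5 ratio of 0.109 in the same cells. It was lower in mature neutrophil-like cells in MASH (198 against 125 CPM, 171 in MASH-Phe-free) and higher in progenitor-like cells (7.06 against 18.3 CPM, on 16 and 24 UMIs, and 5.46 in MASH-Phe-free). In MASH-Phe-free over Chow none of its 11 measured classes was called. There 9 of the 11 ratios were below 1, with the interval below 1 in 5 and above 1 in 0, and a median of 0.862. Sgk1 is the gene whose promoter window above carries the full response element. Errfi1 was low throughout, at 6.17, 7.86 and 5.79 CPM in B-like cells and at most 26.3 CPM, in dendritic-like Chow cells. It was lower in mature neutrophil-like cells in MASH (0.599) and in monocyte-like cells in MASH-Phe-free (0.655), and higher in plasma-like cells in MASH-Phe-free (2.80, interval 1.01 to 9.58, on 19 against 5 UMIs).

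In the 8 genes the 2 MASH libraries differed less from each other than from Chow. In MASH-Phe-free over MASH, 8 of 83 measured pairs were lower and 9 higher, where 7.63% and 7.59% of all pairs were, shares near the background. Fkbp5 was within 1.5-fold in 11 of 12 classes and was higher in macrophage-like cells, at 95 against 56.4 CPM, a ratio of 1.68 (1.47 to 1.93). Klf9 was higher in monocyte-like (1.5), macrophage-like (1.54) and erythroid-like (2.11) cells. Dusp1 had a ratio below 1 in 9 of 12 classes, with the interval below 1 in 7 and a median ratio of 0.793. It was called lower in 3 classes and higher in 1. In progenitor-like cells 5 of the 8 genes were lower and 0 higher, where 12.3% and 9.24% of all genes were, with Dusp1 lowest at 47.2 against 12.6 CPM. These are the cells whose MASH depth stands apart, and its part was not tested. Without erythroid-like, progenitor-like and platelet-like cells, 1 of 64 pairs was lower and 7 were higher, where 5.63% and 7.22% of all pairs in these classes were.

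A second list held 28 other genes that glucocorticoids are known to raise. It was written with earlier results of these data known, and it shares Per1 with the circadian list and Il7r, Pik3ip1 and Irs2 with the FoxO list. In B-like cells 8 of 25 measured genes were lower in MASH and 0 higher, where 3.60% of all genes were lower and 5.71% higher, and 9 of 26 were lower and 3 higher in MASH-Phe-free, where 4.66% and 4.51% of all genes were. Its median log2 ratio in B-like cells was -0.11 in MASH, against -0.32 for the 8 targets and -0.01 for all genes. Pik3ip1, an inhibitor of PI3 kinase, went from 134 CPM to 49.8 and 52.0. Cxcr4, the receptor for the bone marrow chemokine CXCL12, went from 175 to 105 and 75.5 CPM. Bcl2l11 (BIM), which drives lymphocyte death, went from 45.9 to 27.5 and 30.1 CPM. In the other direction Arrdc3, an arrestin-like protein, stood at 7.43, 10.7 and 6.76 CPM, within 1.5-fold. In T-like cells 6 of 26 were lower and 1 higher in MASH, where 4.29% and 5.48% of all genes were. In progenitor-like cells 11 of 24 were lower and 3 higher, where 14.9% and 13.6% of all genes were, with a median of -0.38. Of the 8 targets 3 were lower and 2 higher in those cells, with a median of -0.17, so the order of the 2 lists' medians was the opposite of that in B-like cells. No difference between the lists was tested. Genes that the hormone is known to repress were few: of 16 cytokine and inflammatory genes, 8 were measured in mature neutrophil-like cells, with 6 higher and 0 lower in MASH (6.43% and 18.5% of all genes) and 1 higher and 1 lower in MASH-Phe-free (9.07% and 9.66%). In dendritic-like cells 4 of 8 were lower and 1 higher in MASH, where 5.71% and 7.34% of all genes were.

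**Figure D4:**
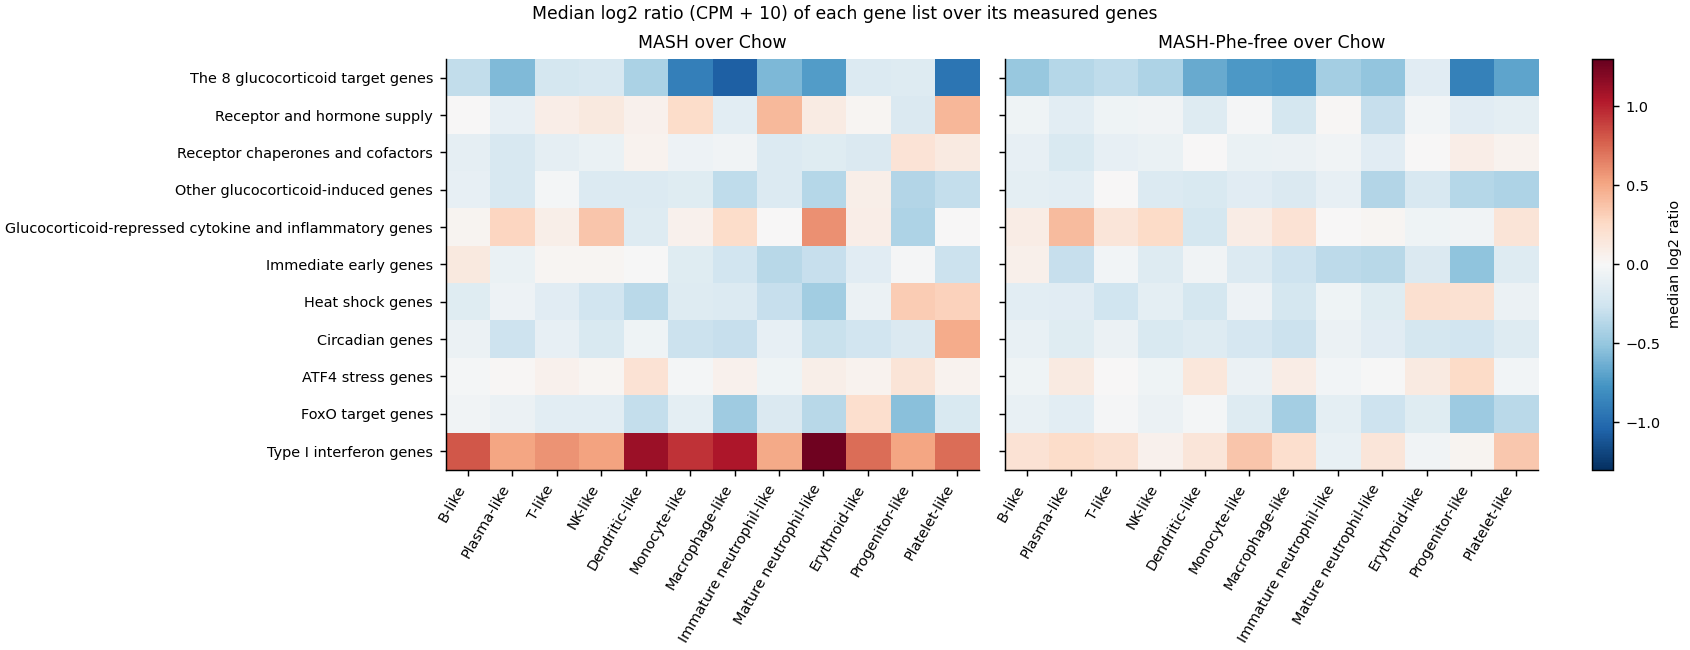
Colour gives the median log2 ratio of CPM + 10 over the measured genes of each list (rows) in each cell class (columns), for MASH over Chow (left) and MASH-Phe-free over Chow (right). The row of the 8 target genes is blue in every class of both panels, with medians of -0.32 and -0.49 in B-like cells, while the interferon row is red in the left panel, at 0.81 in B-like cells, and pale in the right one, at 0.19.

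Type I interferon genes, a program of antiviral defence, were counted in the same cells. Of 12 such genes, 12 were higher in B-like cells in MASH over Chow, where 5.71% of all genes were, and 2 in MASH-Phe-free over Chow, where 4.51% were. In MASH-Phe-free over MASH 10 were lower and 0 higher, where 4.67% and 2.91% of all genes were. Ifit3, an antiviral interferon-induced gene, stood at 10.7, 35.6 and 14.9 CPM there. Of the 8 targets in B-like cells, 4 were lower in MASH over Chow and 5 in MASH-Phe-free over Chow. Both counts include Zbtb16, whose B-like share is read as background. In MASH-Phe-free over MASH 0 of 7 measured targets were lower, and 0 were higher in each comparison. The shares of all genes called lower were 3.60%, 4.66% and 4.67% in that order. Within 1.5-fold in the last comparison, Dusp1 and Tsc22d3 had 0.531% and 0.824% of genes farther down, with 10 CPM added. The difference between the interferon and target patterns was not tested.

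By the likeness of their levels to Fkbp5 over 36 points (12 classes in 3 libraries, each centred on its class), the 5 nearest of 6374 genes were Tsc22d3 (Pearson r 0.902), Serinc3 (0.900), Cxcr4 (0.888), Purb (0.868) and Klhl24 (0.868). The points share libraries, so these values describe the 3 libraries. In B-like cells Serinc3, a membrane protein, stood at 1211, 913 and 899 CPM, and Klhl24, an adaptor of ubiquitin ligases, at 237, 188 and 170 CPM. Tsc22d3 is the nearest, and the medians over classes of their log2 ratios in MASH over Chow run from -0.81 in Tsc22d3 to -0.30 in Purb.

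Other features of the libraries moved with these differences, and their part in them was not tested. Red cell RNA (14 erythroid marker genes, 0 to 5 of them at 0) was lowest in Chow in 10 of the 12 classes. The erythroid-like class, whose own markers these genes are, is counted among the 10. It summed to 44.1, 229 and 153 CPM in B-like cells of Chow, MASH and MASH-Phe-free, to 19.5, 552 and 102 in monocyte-like, to 128, 1589 and 436 in NK-like and to 852, 4324 and 5913 in macrophage-like cells. The exceptions were T-like cells, at 172, 335 and 126 CPM, and plasma-like cells, at 686, 279 and 64.7 CPM. With haemoglobin, immunoglobulin, mitochondrial and ribosomal genes left out of the totals, 45 and 50 pairs were lower in MASH and MASH-Phe-free over Chow. Pancreatic enzyme RNA (7 genes) summed to 5.48 CPM in B-like Chow cells, to 0.963 in MASH with 1 of the 7 at 0, and to 1.3 in MASH-Phe-free. In mature neutrophil-like cells it was 163, 10.1 and 30.4 CPM, while in macrophage-like cells it was 241, 199 and 291 CPM. Keeping the clusters led by these genes in their class left the counts at 46 and 50. Liver cell RNA (5 genes) was at most 1.52 CPM in every class apart from MASH-Phe-free platelet-like (11.7 CPM, 3 of 5 genes at 0) and macrophage-like (19.7 CPM, none at 0) cells. Of 15 immediate early genes measured in B-like cells, 1 was lower and 4 higher in MASH, where 3.60% and 5.71% of all genes were, among them Fos at 31.8, 48.9 and 40.0 CPM. In MASH-Phe-free 1 was lower and 2 higher, where 4.66% and 4.51% were. Of 15 circadian genes measured there, 1 was lower in MASH (3.60% of all genes) and 2 in MASH-Phe-free (4.66%). Nr1d2, a clock repressor, stood at 26.2, 18 and 17 CPM and was called lower in MASH-Phe-free (0.648). In monocyte-like cells 6 of 13 circadian genes were lower in MASH and 7 of 14 in MASH-Phe-free, where 7.18% and 7.57% of all genes were. Of 6 heat shock genes measured in B-like cells 3 were lower in MASH and 3 in MASH-Phe-free, where 3.60% and 4.66% of all genes were, with Hsph1 at 37.9, 24.9 and 25.1 CPM. The median mitochondrial share of B-like cells was 2.73%, 2.55% and 2.66%.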

How the data were processed

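Spleen cells were profiled with the 10x Chromium 5′ v2 kit, per the labels' protocols. Per the submitters' processing notes, Cell Ranger 9.0.1 and Seurat 5.3.0 were used and the builds named are GRCm39 and mm39; no source used here gives their roles. The deposited matrices hold raw UMI counts per gene and barcode, which the authors made. Cell totals were scaled and log-transformed for the clustering, while the levels are CPM of summed raw UMIs. Barcodes with at least 300 genes, 500 UMIs and at most 10% mitochondrial UMIs were kept, and Scrublet doublets (1.80% to 1.97%) were removed. Cells were clustered with scanpy 1.11.5 (2000 variable genes, 30 components, 15 neighbours, Leiden resolution 1.0), with the 8 genes and all genes of the lists, other than markers, kept out, and named from fixed markers. Clusters with mixed markers were divided once. Clusters led by pancreatic enzyme genes, or with too few markers of their own, stayed unnamed: 1088 Chow, 1217 MASH and 675 MASH-Phe-free cells. Those led by pancreatic enzyme genes were nearly all Chow cells, the largest with 165 Chow, 4 MASH and 7 MASH-Phe-free cells. A threshold set after the data were seen kept a cycling cluster of 65, 94 and 62 cells out of the plasma-like class.

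UMIs were summed per class and library and given as CPM with exact Poisson 95% intervals, ratios with exact conditional Poisson 95% intervals. These cover counting error only. Calls needed 1.5-fold and 20 UMIs over the 2 libraries. log2 ratios carry an offset of 10 CPM. A level of 0 is read against 3 counts. Nothing was tested between groups. The members and lists were chosen with earlier results of these data known. The rule for named genes takes all 8 members, at most 3 genes a list and direction farthest from 1 in B-like cells (MASH over Chow, at least 50 UMIs), and the 5 genes most like Fkbp5. Genes of the receptor list named in other classes, and the counts of lists in other classes, were chosen after their values were seen. The interval method was tested on simulated data. Alternatives were other resolutions, per-cell gates, stricter cell filters, kept doublets, other scalings, weightings, minimums and folds, and an offset of 1 CPM.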

Additional observations from a re-analysis of the deposited data

Results flagged for a closer look

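Several of the 8 genes moved in opposite directions in different cell classes under the same comparison; none of these differences was tested, since each group is 1 library. Zbtb16 in MASH over Chow had a ratio of 0.0920 in B-like cells, on 2 UMIs against 22 in cells whose share with a UMI is read as background, and of 3.29 in progenitor-like cells, on 21 against 11. Sgk1 in MASH over Chow had 0.634 in mature neutrophil-like and 2.59 in progenitor-like cells. Dusp1 in MASH over Chow had 0.332 in platelet-like cells, on 8 against 14 UMIs, and 2.22 in erythroid-like cells. Errfi1 in MASH-Phe-free over Chow had 0.655 in monocyte-like and 2.80 in plasma-like cells. Zbtb16 in MASH-Phe-free over MASH had 0.299 in progenitor-like and 1.54 in mature neutrophil-like cells. The progenitor-like values go with a median depth of 4339 UMIs in MASH and of 35233 and 39105 in the other libraries, and the erythroid-like one with a late cluster of 435 cells in MASH against 11 in Chow; their part was not tested.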

How the results depend on the processing

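No paired analysis was possible because each group is 1 library. The count of lower pairs in MASH over Chow (46) stayed within 1.5 times under every alternative, from 32 (2-fold) to 51 (no minimum of UMIs). In MASH-Phe-free over Chow (50) it was 27 at 2-fold and within 1.5 times under the other alternatives. In MASH-Phe-free over MASH the 8 lower pairs became 5 at resolution 0.5, 13 at resolution 2.0, 5 with the stricter filter on cells, 14 with each cell weighing alike, 14 with no minimum of UMIs, 4 at 2-fold and 1 without erythroid-like, progenitor-like and platelet-like cells, an alternative added after seeing the data, as was the one that keeps pancreatic-enzyme clusters. The 9 higher pairs became 2 at 2-fold. The few pairs higher than in Chow ranged from 0 to 6 in MASH (3 as reported) and from 0 to 5 in MASH-Phe-free (1 as reported), both highest with each cell weighing alike. Fewer pairs are measured under the stricter filter and a larger fold calls fewer by construction; otherwise the cause was not tested. Of 112 called pairs whose interval leaves out 1, 2 reversed: Dusp1 in platelet-like cells, MASH over Chow, from a log2 ratio of -1.13 to 0.25 with each cell weighing alike, and Tsc22d3 in erythroid-like cells, MASH-Phe-free over MASH, from -0.44 to 0.14 with clusters weighted alike. An offset of 1 CPM in place of 10 moved 53 of the 112 log2 ratios beyond their counting interval, and weighing each cell alike 35. The other settings moved 0 to 13 of the pairs that could be had under them. Of the 112, 28 could not be had under per-cell gates, 20 under the stricter filter and 14 at resolution 0.5. Whether those pairs hold there is not known. Centring moved ratios by -0.17 to 0.16 (log2), the shift of the median of all genes. Depth limits Zbtb16, Klf9 and Errfi1, with 20 UMIs missing in up to 6 of 12 classes in MASH over Chow.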
